A study of Homo sapiens with 2 samples.

Results

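Genes of amino acid, serine and polyamine metabolism were compared between C4-2B-MDVR and C4-2B, a pair of human prostate cancer cell lines. The set comprised 57 genes chosen by symbol for their role: enzymes of amino acid and one-carbon metabolism, amino acid carriers, and polyamine enzymes with their regulators. Of these, 55 had a probe set that names that gene alone, out of 19775 genes so named on the array, and GPT2 and GLS2 were not analysed here. C4-2B is sensitive to enzalutamide, an antiandrogen, and C4-2B-MDVR is a resistant line that was derived from it by prolonged growth with the drug, per the series description. Both lines were grown in RPMI-1640 with 10% fetal bovine serum, and both samples are titled as no treatment. Whether the medium of C4-2B-MDVR held enzalutamide until RNA was taken cannot be told from those titles. Whether C4-2B-MDVR is a clone or a pool is not given in the sources used here. Each line was measured once, on 1 Affymetrix array of 54675 probe sets.

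With 1 array per line there is no spread between replicates and no test of significance, so each difference below compares these 2 arrays only, whose number sets the limit on precision. Values are linear intensities, and each difference is the log2 intensity in C4-2B-MDVR minus that in C4-2B. A gene is represented by its probe set with the highest mean over both arrays. It was taken as above the detection floor when its brighter value reached that array's median intensity, 43.5 in C4-2B-MDVR or 41.9 in C4-2B. A log2 difference of 1 in size is 2-fold. The middle 50% of the 13437 genes above the floor lay between −0.22 and 0.26, with a median of 0.04. Where a gene had 2 or more probe sets above the floor (6261 genes), the differences of its own probe sets spanned a median of 0.34, and in 25% of those genes at least 0.61. A difference under 0.34 in 1 member is therefore no larger than the disagreement usual within a gene. The free-text description of the resistant sample names a docetaxel-resistant line, TaxR, whereas its title, source and cell line labels name C4-2B-MDVR, and the cell line label was followed. Of 9 prostate luminal markers, 7 had a probe set of their own and all 7 were above the floor on both arrays. KRT18, an epithelial keratin, read 4038 in C4-2B-MDVR and 4337 in C4-2B, and HOXB13, a prostate transcription factor, 1950 and 1879 in the same order. KLK3, the androgen-regulated gene of prostate-specific antigen, had 172 in C4-2B-MDVR and 8379 in C4-2B (−5.61, or 48.8-fold lower), the lowest difference of the 13437 genes, with 3 probe sets from −6.24 to −0.35. Markers of other cells were mixed: PTPRC, KRT14, COL3A1 and LUM were under the floor on both arrays, whereas CD3E, PECAM1 and VWF read 58.9 to 80.4 and COL1A1 217 in C4-2B-MDVR and 255 in C4-2B. DCN was just above the floor on both arrays, and KRT5 was above it in C4-2B alone. The probe sets that stand for KRT18, KLK3, COL1A1 and DCN are of a type that may cross-hybridize, as their names mark. The part of KLK3 or of these markers in the differences below was not tested.

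Serine is made from a glycolytic intermediate by the enzymes PHGDH, PSAT1 and PSPH, and it passes a carbon unit to folate to make glycine. Carriers at the plasma membrane bring in the amino acids that a cell does not make, and several of them exchange one amino acid for another. Ornithine decarboxylase and its partner enzymes turn ornithine and methionine into polyamines, small cations that prostate epithelium makes and secretes in large amounts. Arginine, ornithine and citrulline link these pathways, because arginase yields ornithine and argininosuccinate synthase begins the rebuilding of arginine from citrulline.

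The carriers of the set were lower in C4-2B-MDVR more often than its other members, and ASS1, which encodes argininosuccinate synthase, stood out as higher. Below 0 were 14 of the 19 carriers of the set above the floor, but 6 of 20 in a list of further amino acid carriers, where 44.8% of all genes were. The set and that list were both chosen with earlier results of these data known. Of the 47 members above the floor, 1 was 2-fold or more higher in C4-2B-MDVR, where 3.17% of all genes were, and 5 were 2-fold or more lower, where 3.5% of all genes were. SLC36A4 is one of the 5 by its measured value alone: its C4-2B-MDVR reading lies under the floor, which bounds it at 1.91-fold or more. All 5 were carriers: SLC43A1, SLC7A2, SLC36A4, SLC38A1 and SLC7A1. At 1.5-fold, 2 members were higher (8.26% of all genes were) and 12 lower (9.32% of all genes were), 9 of them among the 19 carriers above the floor. The median difference was −0.55 for those carriers and −0.10 for the 28 other members above the floor. Of the 47 members, 46 were at or above the floor on both arrays, the exception being SLC36A4. These counts depend on the probe set: when the probe sets above the floor were averaged for each gene, SLC43A1 and, by its measured value, SLC36A4 were the 2 members still 2-fold or more lower, and SLC1A1 joined ASS1 as higher. In RNA from whole cultures, fewer expressing cells and less RNA per cell cannot be told apart.

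ASS1 had an intensity of 2828 in C4-2B-MDVR and 615 in C4-2B, a log2 difference of 2.20 or 4.60-fold. It ranked 85 from the top among the 13437 genes and was the largest difference of the set in either direction by the probe sets that stand for the genes. One probe set names ASS1 alone, and the gene has processed pseudogenes of similar sequence, so the value rests on a single reading that could take in related transcripts. The next enzyme of the pathway, ASL, which splits argininosuccinate into arginine and fumarate, did not move with it: its intensity was 367 in C4-2B-MDVR and 469 in C4-2B (−0.35). ARG2, the mitochondrial arginase, read 665 in C4-2B-MDVR and 613 in C4-2B (0.12), and OAT, which converts ornithine towards proline and glutamate, differed by 0.03. The 2 enzymes that make proline from glutamate were at −0.43 (ALDH18A1) and −0.07 (PYCR1), and PRODH, which breaks proline down, was under the floor on both arrays. ALDH18A1 read 905 in C4-2B-MDVR and 1220 in C4-2B, and a second probe set gave −0.42.

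The ASS1 promoter is shown because ASS1 differed most. The window of 300 bases (RefSeq, GRCh38.p14, chr9:130444711-130445010, plus strand) runs from 250 bases before a transcription start to 50 after it. It holds 1 E-box, CACGTG, the palindrome bound by MYC with MAX and by other factors of that class, which begins 71 bases before the start and is in capitals.
ASS1: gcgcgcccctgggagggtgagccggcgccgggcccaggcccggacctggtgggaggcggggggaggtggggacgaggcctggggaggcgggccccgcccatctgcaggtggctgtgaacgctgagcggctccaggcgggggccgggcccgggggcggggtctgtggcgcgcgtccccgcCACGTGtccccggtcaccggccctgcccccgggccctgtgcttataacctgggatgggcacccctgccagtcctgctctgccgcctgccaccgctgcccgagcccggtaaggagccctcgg
A second ASS1 window from another annotated start held no match to the motifs searched. An E-box was in 16 of 82 windows of members (19.5%) and in 7.26% of 35116 windows of all genes, or 8.34% of those of protein-coding genes. The 3 MTHFD1L windows among the 16 overlap and repeat 1 E-box. Counted by gene, 14 of the 47 members with a window had one (29.8%), where 8.77% of all genes and 10.9% of protein-coding genes did. A match describes the sequence and shows no binding.

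**Figure D1:**
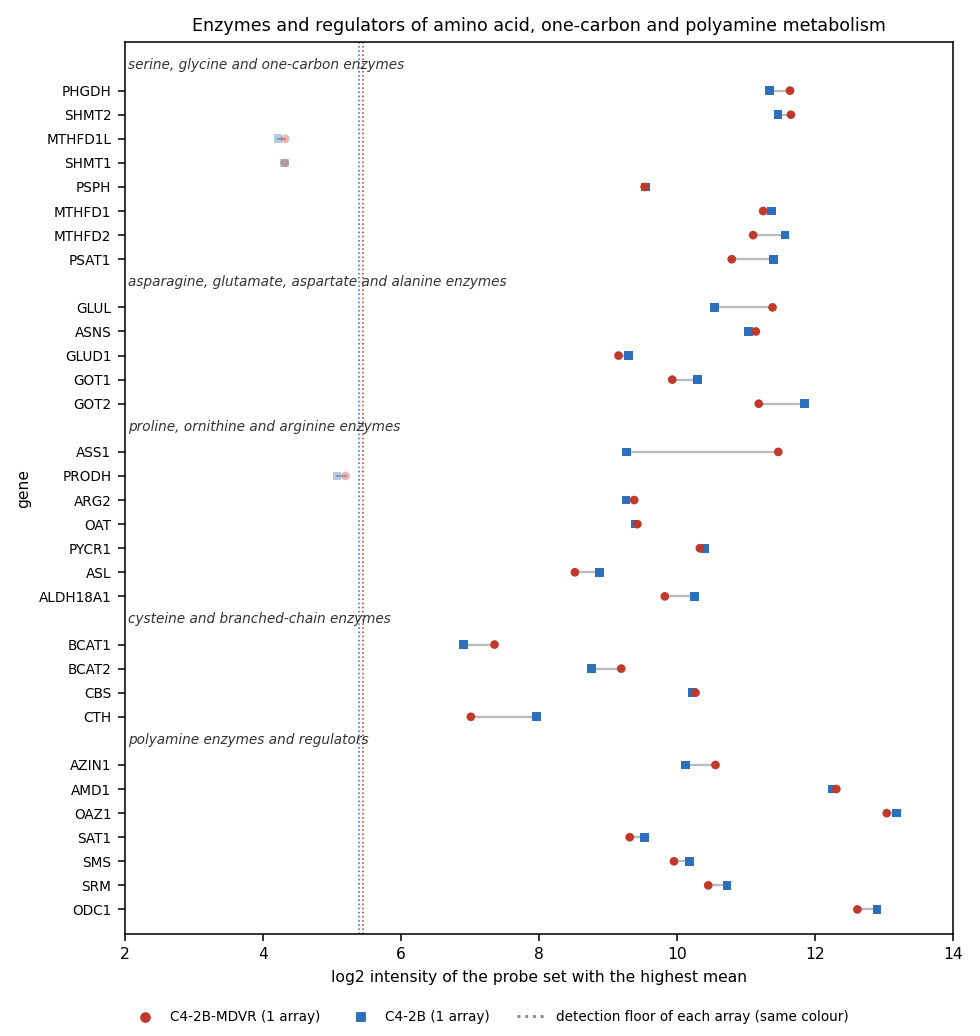
Log2 intensity (horizontal axis) of the enzymes and polyamine genes that had a probe set, with C4-2B-MDVR as red circles and C4-2B as blue squares, 1 array each, and the detection floor of each array as a dotted line. Faded symbols are genes under the floor on both arrays. ASS1 has the widest gap (2828 in C4-2B-MDVR and 615 in C4-2B), and GLUL is the next among those higher in C4-2B-MDVR.

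The 6 member enzymes of serine and one-carbon metabolism above the floor lay within 2-fold by the probe sets that stand for them. They did not share a direction. PHGDH, which commits 3-phosphoglycerate to serine, had an intensity of 3181 in C4-2B-MDVR and 2595 in C4-2B (0.29). PSAT1, the transaminase that follows it, went the other way, at 1772 in C4-2B-MDVR and 2701 in C4-2B (−0.61), and both of its probe sets were below 0 (−0.61 and −0.43). PSPH, the phosphatase of the last step, read 739 in C4-2B-MDVR and 746 in C4-2B (−0.01), but 2 further probe sets gave −0.34 and −0.95. So the first enzyme of the pathway was slightly higher and the next 2 were level or lower, by amounts that vary with the probe set.

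SHMT2, the mitochondrial enzyme that makes glycine from serine, was at 3209 in C4-2B-MDVR and 2816 in C4-2B (0.19), with 3 probe sets between 0.08 and 0.29. MTHFD2, which oxidizes the folate-bound carbon in mitochondria, had an intensity of 2196 in C4-2B-MDVR and 3028 in C4-2B (−0.46). A second probe set gave −1.40 and is of a type that may cross-hybridize, as its name marks. MTHFD1, the cytosolic enzyme, differed by −0.12. SHMT1 and MTHFD1L were under the floor by their single-symbol probe sets. Both had brighter probe sets that the annotation shares with other gene symbols. Those for SHMT1 read 1151 in C4-2B-MDVR and 1012 in C4-2B (0.19), and 586 and 509 in the same order (0.20). Those annotated to MTHFD1L were at 0.05 and −0.66, so its direction is not settled. Over the 6 genes of the group above the floor the median was −0.07, against 0.04 for all genes.

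Of the enzymes of glutamine, glutamate, aspartate and asparagine, GLUL was higher in C4-2B-MDVR and GOT2 lower, each by over 1.5-fold. GLUL, glutamine synthetase, had an intensity of 2668 in C4-2B-MDVR and 1494 in C4-2B (0.84, or 1.79-fold), and its 3 probe sets above the floor lay between 0.84 and 0.99. This was the second highest difference among the members. GOT2, the mitochondrial aspartate aminotransferase, was at 2324 in C4-2B-MDVR and 3688 in C4-2B (−0.67). Its cytosolic counterpart GOT1 read 975 in C4-2B-MDVR and 1256 in C4-2B (−0.37). The aminotransferases thus were both lower, each by a single probe set. ASNS, asparagine synthetase, a standard readout of amino acid shortage, differed little, with 2257 in C4-2B-MDVR and 2096 in C4-2B (0.11). GLUD1, glutamate dehydrogenase, read 568 in C4-2B-MDVR and 626 in C4-2B (−0.14) and was at 0.07 by its other probe set. Both probe sets may also read its near-identical copy GLUD2.

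In the transsulfuration pathway, which makes cysteine from homocysteine, the first and the second enzyme differed. CBS was at 1231 in C4-2B-MDVR and 1194 in C4-2B (0.04), whereas CTH, which releases cysteine, had 129 in C4-2B-MDVR and 250 in C4-2B (−0.96, or 1.94-fold lower). The other CTH probe set was at −0.36. Both branched-chain aminotransferases were higher by less than 1.5-fold: BCAT1, the cytosolic form, read 164 in C4-2B-MDVR and 120 in C4-2B (0.45), and BCAT2, the mitochondrial form, 584 and 432 in the same order (0.44). All 4 BCAT1 probe sets were above 0, from 0.11 to 0.87.

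Among the carriers, the lowest value was that of SLC43A1 (LAT3), which carries leucine and other large neutral amino acids without sodium and is also known as POV1, from its high expression in prostate cancer. Its intensity was 281 in C4-2B-MDVR and 965 in C4-2B, a difference of −1.78 or 3.43-fold lower, from 1 probe set. Only 0.908% of genes above the floor had a lower difference. The related SLC43A2 (LAT4) was at 144 in C4-2B-MDVR and 112 in C4-2B (0.36), with its other probe set at −0.24. The carrier that differed most therefore had a close relative that did not share its direction by the brighter probe set.

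The carriers of cationic amino acids, SLC7A1 and SLC7A2, which import arginine, lysine and ornithine, were both lower by the probe set that stands for them. SLC7A1 had an intensity of 1771 in C4-2B-MDVR and 3570 in C4-2B (−1.01, or 2.02-fold lower), and its 5 probe sets above the floor were all below 0, from −1.01 to −0.44. SLC7A1 lies at the 2-fold threshold itself and was under it with quantile normalization (−0.97) and loess (−0.98). SLC7A2 read 158 in C4-2B-MDVR and 370 in C4-2B (−1.23), but a second probe set gave 0.51, with 52.6 in C4-2B-MDVR and 36.8, under the floor, in C4-2B. The 2 probe sets of SLC7A2 therefore disagree in direction, while those of SLC7A1 do not. 

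SLC3A2 (4F2hc) is the heavy chain that escorts a group of SLC7 light chains to the cell surface, and each light chain sets what is carried. SLC3A2 itself differed little, at 585 in C4-2B-MDVR and 630 in C4-2B (−0.11). Its light chains above the floor, 4 of the 5 listed, were all lower, from −0.76 to −0.55, where 44.8% of all genes were below 0. Of these 4, 0 reached 2-fold, where 3.5% of all genes were 2-fold or more lower, so that count says little. SLC7A11 (xCT), which takes up cystine in exchange for glutamate, had 391 in C4-2B-MDVR and 664 in C4-2B (−0.76), and its 3 probe sets lay between −0.88 and −0.45. SLC7A5 (LAT1), the main importer of large neutral amino acids in many tumours, had 766 in C4-2B-MDVR and 1246 in C4-2B (−0.70). SLC7A8 (LAT2) was at −0.61 and SLC7A6 (y+LAT2) at −0.55, and all 3 probe sets above the floor of each were below 0. The probe set that stands for SLC7A8 is of a type that may cross-hybridize, and another gave −0.62. The other light chain, SLC7A7, was under the floor on both arrays. The cystine importer and CTH, which supply cysteine by separate routes, were thus both lower by 1.5-fold or more, with 1 probe set of each at under 1.5-fold.

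Sodium-coupled carriers of small neutral amino acids were uneven. SLC38A1 (SNAT1), a glutamine importer, read 983 in C4-2B-MDVR and 2094 in C4-2B (−1.09, or 2.13-fold lower), while 3 further probe sets gave −0.97, −0.42 and 0.28. SLC38A2 (SNAT2), whose messenger is known to rise when amino acids are short, was at 2281 in C4-2B-MDVR and 2494 in C4-2B (−0.13), with 3 probe sets from −0.13 to −0.06. SLC1A5 (ASCT2), a glutamine exchanger, had 491 in C4-2B-MDVR and 594 in C4-2B (−0.27), and SLC1A4 (ASCT1), which carries serine and alanine, 97.0 and 169 in the same order (−0.80). Of the 4 SLC1A4 probe sets above the floor 3 were below 0 and the fourth was at 0.28. The probe sets that stand for SLC1A4 and SLC38A2 are of a type that may cross-hybridize. Of these carriers SLC38A1 alone passed 2-fold, and by 1 of its 4 probe sets.

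Of the SLC36 carriers, SLC36A4 (PAT4) read 38.1 in C4-2B-MDVR, under the floor, and 83.2 in C4-2B. It was thus at least 1.91-fold lower by bound and −1.13 as measured. Its C4-2B value is close to the 80.4 of VWF, a marker of other cells, on that array, so a reading at this level may be background. SLC36A1 (PAT1), the relative of SLC36A4, was at −0.42, with its other probe set at 0.26. SLC38A9, a lysosomal sensor of arginine for the growth kinase mTORC1, differed by 0.06. Several dim carriers lay above 0, among them SLC1A3, a glutamate carrier, at 0.41, SLC6A6, which carries taurine, at 0.20 and SLC1A1, a carrier of glutamate and cysteine, at 0.27. The other SLC1A1 probe set had 91.7 in C4-2B-MDVR and 18.3, under the floor, in C4-2B, at least 2.19-fold higher, so SLC1A1 depends on the probe set. SLC6A9, SLC6A14, SLC7A7, SLC38A4 and SLC38A5 were under the floor on both arrays, and a difference in them could not have been seen.

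**Figure D2:**
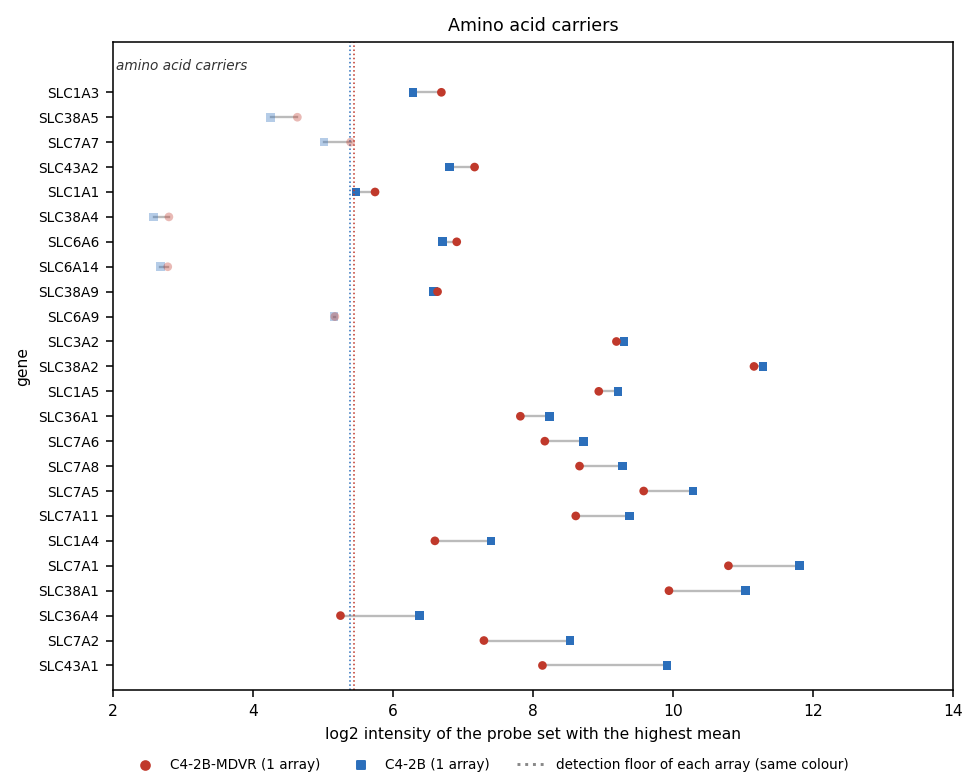
Log2 intensity (horizontal axis) of the 24 amino acid carriers, C4-2B-MDVR as red circles and C4-2B as blue squares, 1 array each, with the floor of each array as a dotted line and genes under it faded. From SLC3A2 downwards the red circle lies left of the blue square, with the widest gap at SLC43A1 (281 in C4-2B-MDVR and 965 in C4-2B).

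Counted by probe set, 32 of the 43 carrier probe sets above the floor were below 0 (74.4%), against 28 of 52 for the other members (53.8%) and 46.7% of 24087 probe sets of all genes. Probe sets of 1 gene are not independent readings of the cell line. By gene, 14 of the 19 carriers were below 0, and 44.8% of all genes were. In a list of 33 further amino acid carriers, of 20 above the floor 0 were 2-fold or more higher or lower, 6 were below 0 and the median was 0.08. As 3.17% of all genes were 2-fold or more higher and 3.5% lower, the count of 0 in 20 says little. Another 229 solute carrier genes above the floor, counted after the values were seen, had a median of −0.0010. Downwards, 6 of them reached 2-fold (2.62%, against 3.5% of all genes). Upwards, 3 did (1.31%, against 3.17% of all genes). Of the SLC7 and SLC38 carriers of the set, a grouping that was not planned, 8 of 9 above the floor were below 0. Genes of these families among the further carriers went both ways. SLC7A4 (−0.01), SLC38A6 (−0.46) and SLC38A7 (−0.08) were below 0, and SLC7A9 (0.20), SLC38A3 (0.66) and SLC38A10 (0.44) above it. Values below 0 were not limited to carriers: 16 of the 28 other members were below 0 (57.1%), among them PSAT1, GOT2 and CTH at 1.5-fold or more. The members and the list of further carriers were chosen with earlier results of these data known, so the contrast between them may restate that choice. No significance can be attached to the contrast between these lists.

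**Figure D3:**
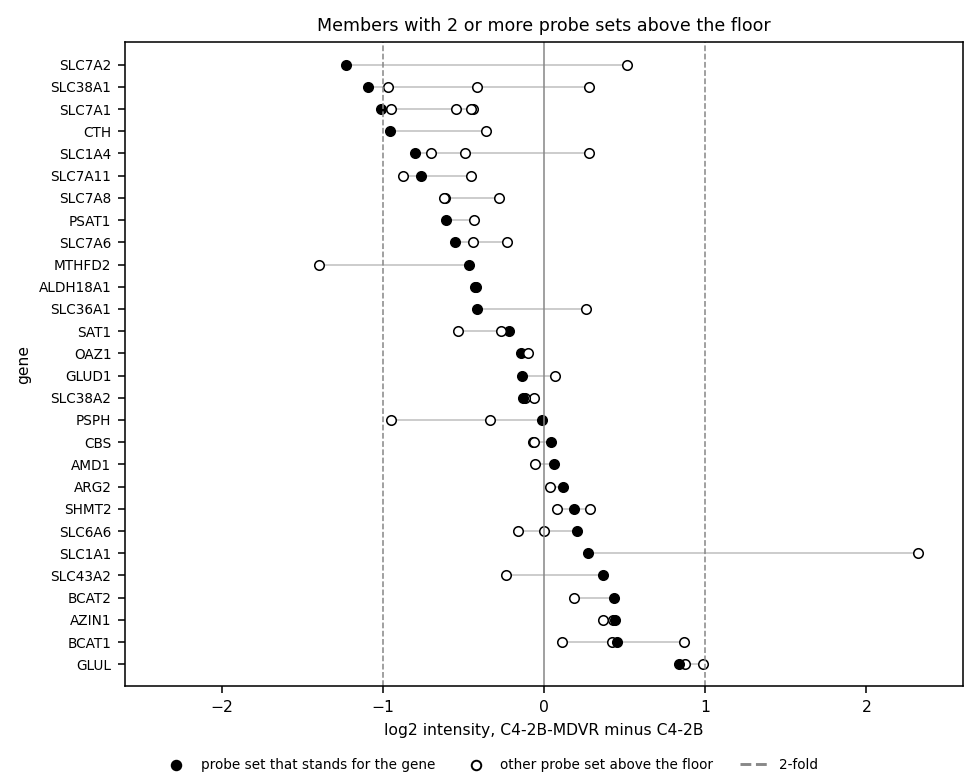
Log2 difference between C4-2B-MDVR and C4-2B (horizontal axis) for every probe set above the floor of the 28 members that have 2 or more, with the one that stands for the gene filled and the others open. In 19 of the 28 all probe sets lie on the same side of 0, and those of SLC7A2, SLC38A1 and SLC1A4 lie on both sides.

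Promoter sequence is shown for SLC43A1, SLC7A1, SLC38A1 and ASNS, in each case from a window that holds a match. The first 3 of these genes were lower, and ASNS carries the best known amino acid response site. The C/EBP-ATF response element, searched as TGATGNAAN on both strands, is bound by ATF4 with a C/EBP partner when amino acids run short. All windows are from RefSeq on GRCh38.p14, on the minus strand and written in the sense of the gene. They are chr11:57515653-57515952 for SLC43A1, chr13:29595639-29595938 for SLC7A1, chr12:46266467-46266766 for SLC38A1 and chr7:97872359-97872658 for ASNS. Capitals mark the E-box in SLC43A1 and the response element in the others. Another window of SLC43A1, of SLC38A1 and of ASNS held no match to the motifs searched. Nor did the windows of SLC36A4, a carrier that was also lower.
SLC43A1: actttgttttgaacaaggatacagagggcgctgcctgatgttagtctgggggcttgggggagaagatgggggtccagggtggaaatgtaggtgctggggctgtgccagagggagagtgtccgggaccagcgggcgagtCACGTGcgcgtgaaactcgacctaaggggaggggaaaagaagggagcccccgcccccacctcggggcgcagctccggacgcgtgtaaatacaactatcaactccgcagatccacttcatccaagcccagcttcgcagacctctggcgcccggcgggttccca
SLC7A1: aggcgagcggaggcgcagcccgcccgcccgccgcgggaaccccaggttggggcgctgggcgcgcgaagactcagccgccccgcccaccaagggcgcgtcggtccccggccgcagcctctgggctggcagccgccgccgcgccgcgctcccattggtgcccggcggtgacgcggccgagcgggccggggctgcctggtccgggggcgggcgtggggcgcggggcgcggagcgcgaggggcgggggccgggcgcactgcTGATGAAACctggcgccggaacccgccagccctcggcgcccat
SLC38A1: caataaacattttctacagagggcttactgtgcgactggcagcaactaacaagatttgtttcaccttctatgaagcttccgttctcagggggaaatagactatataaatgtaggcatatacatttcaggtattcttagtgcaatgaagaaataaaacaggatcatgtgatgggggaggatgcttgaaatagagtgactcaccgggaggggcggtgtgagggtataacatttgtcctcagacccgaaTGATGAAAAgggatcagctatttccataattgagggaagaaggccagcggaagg
ASNS: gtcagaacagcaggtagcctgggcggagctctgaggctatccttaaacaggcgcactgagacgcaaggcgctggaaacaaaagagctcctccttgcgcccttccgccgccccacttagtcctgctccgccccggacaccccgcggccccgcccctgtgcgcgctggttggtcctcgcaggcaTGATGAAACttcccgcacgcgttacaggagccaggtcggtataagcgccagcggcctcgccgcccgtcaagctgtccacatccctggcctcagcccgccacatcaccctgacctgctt
ASNS and SLC7A1 hold the same 9 letters, beginning 68 bases before the start in ASNS and at base 8 after it in SLC7A1. The 2 genes differed by 0.11 and −1.01.

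The element was found in windows of 10 of the 47 members that have one, and the sites outside the windows above are printed with 8 flanking bases where the window allows, the element in capitals and in reverse for GOT1, SLC1A4 and SLC3A2.
BCAT1: cttcctgcTGATGCAATccgctagg
GOT1: ttgcattgGTTGCATCAttctcggc
MTHFD1L: gccggctcTGATGCAATcgcgccgg
SLC1A3: gaaatgacTGATGCAAAgcagggtt
SLC1A4: ggctcccgTTTGCATCAtctccagc
SLC1A5: gaagtggcTGATGCAAGctgtccag
SLC3A2: caggactcCTTACATCAgctcc
By window this was 12 of 82 (14.6%), where 3.61% of the windows of all genes and 2.69% of those of protein-coding genes hold it. By gene it was 21.3% of the 47, where 4.45% of all genes and 3.60% of protein-coding genes had it. The 3 MTHFD1L windows overlap and repeat 1 site. The members were chosen by pathway, and several are textbook targets of ATF4. Genes with the element did not share a direction: SLC38A1, SLC7A1 and SLC1A4 were at −0.80 or below, whereas BCAT1 was at 0.45 and SLC1A3 at 0.41. The full androgen response element in its exact palindromic form was in 0 member windows and in 1 of the 35116 windows, and windows of this length say nothing of androgen control. No E-box overlapped a response element in the members.

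Polyamine genes lay within 1.5-fold, the narrowest range of the 6 groups of members. ODC1, ornithine decarboxylase, which makes putrescine and sets the pace of the pathway, had an intensity of 6256 in C4-2B-MDVR and 7616 in C4-2B (−0.28). AMD1, which supplies the aminopropyl donor, was at 5065 in C4-2B-MDVR and 4856 in C4-2B (0.06). SRM, spermidine synthase, read 1399 in C4-2B-MDVR and 1691 in C4-2B (−0.27), and SMS, spermine synthase, 992 and 1163 in the same order (−0.23). These 4 enzymes of synthesis thus differed by no more than probe sets of one gene usually do.

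SAT1, which acetylates spermidine and spermine for export, had 636 in C4-2B-MDVR and 740 in C4-2B (−0.22), with 3 probe sets from −0.53 to −0.22. AZIN1, the antizyme inhibitor that spares ODC1 from degradation, was the highest of the group, with 1505 in C4-2B-MDVR and 1110 in C4-2B (0.44), and its 3 probe sets lay between 0.36 and 0.44. OAZ1, the antizyme that directs ODC1 to the proteasome, was at 8404 in C4-2B-MDVR and 9269 in C4-2B (−0.14). Antizyme is controlled by frameshifting in translation, which an array does not measure. The group median was −0.22.

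Of 161 further genes of the same pathways above the floor, from lists of 202 genes, 2 were 2-fold or more higher and 5 lower, shares of 1.24% and 3.11% against 3.17% and 3.5% of all genes. Of 23 other folate and methionine cycle genes above the floor 1 was 2-fold or more higher and 2 lower. GLDC, the decarboxylase of the glycine cleavage system, had 214 in C4-2B-MDVR and 50.03 in C4-2B (2.09, or 4.27-fold higher). GNMT, which methylates glycine, had 55.3 in C4-2B-MDVR and 268 in C4-2B (−2.28, or 4.84-fold lower). The enzymes that use glycine in these 2 ways thus differed in opposite directions, each by a single probe set, and GGH, a hydrolase of polyglutamated folate, was at −1.05.

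ASRGL1, which cleaves asparagine and isoaspartyl peptides, had 101 in C4-2B-MDVR and 446 in C4-2B (−2.14), with its other probe set at −3.07. ADSS1, which joins aspartate to IMP, had 199 in C4-2B-MDVR and 50.6 in C4-2B (1.97), but its other probe set was at −0.04. These were the 2 genes beyond 2-fold among 13 other glutamate, alanine and aspartate enzymes above the floor. In branched-chain breakdown MCCC2, a subunit of the leucine pathway carboxylase, was the 1 of 20 genes beyond 2-fold, with 315 in C4-2B-MDVR and 1251 in C4-2B (−1.99) and −1.81 by its other probe set. Its partner subunit MCCC1 was at −0.02. MTAP, which salvages the methylthioadenosine that polyamine synthesis leaves, was the 1 of 18 in its list, at −1.15, with 5 probe sets from −1.15 to 0.04. With 3.17% of all genes 2-fold or more higher and 3.5% lower, counts of 1 or 2 say little about lists of this size.

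Aminoacyl-tRNA synthetases and the amino acid sensing and stress genes held 0 genes beyond 2-fold, of 17 and 25 above the floor, with medians of −0.16 and 0.15. At the shares over all genes, lists of this size would hold few such genes or none, so these counts say little about the lists. At 1.5-fold, 4 of the 25 sensing and stress genes were higher (8.26% of all genes were) and 1 lower (9.32% of all genes were). The 4 were DDIT3 (0.72), SESN2 (0.72), CASTOR2 (0.65) and VLDLR (0.64), and the 1 was SAR1B (−0.85). ATF4, the transcription factor of the amino acid response, was at 4651 in C4-2B-MDVR and 4162 in C4-2B (0.16). Other proline and urea cycle genes (11 above the floor, median 0.03) and genes of aromatic, lysine, histidine and sulfur breakdown (14, median 0.15) also held 0 genes beyond 2-fold.

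**Figure D4:**
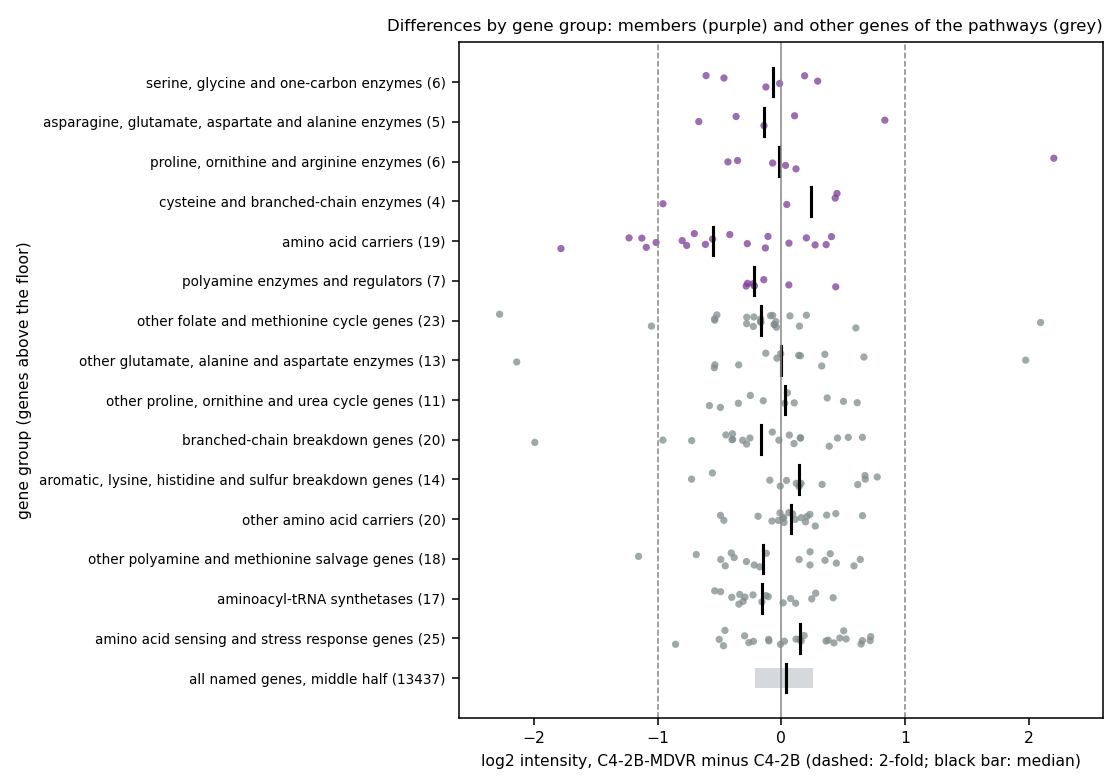
Log2 difference between C4-2B-MDVR and C4-2B (horizontal axis) for each gene above the floor, by group, with members in purple, other pathway genes in grey, medians as black bars and the middle 50% of all genes as a bar (−0.22 to 0.26). The carriers among the members have the lowest median (−0.55), and ASS1 is the 1 member beyond 2-fold to the right.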

How the data were processed

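Total RNA, 1 sample of each line, was isolated with Trizol, 100 ng was amplified, biotin-labelled and then hybridized to an Affymetrix array, per the labels' protocols. The table deposited by the authors gives linear intensity, judged from the range of values (4.31 to 20631 in C4-2B-MDVR and 4.44 to 20840 in C4-2B). How the authors corrected, normalized and summarized the arrays is not given in the sources used here. The log2 was taken without further scaling. The table held 0 other sample columns.

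Gene names came from the platform annotation of 2016, which gives 41097 of 54675 probe sets a single symbol and 1801 several. Entrez identifiers of 41043 matched RefSeq genes of GRCh38.p14, and 0 symbols changed. Those with several symbols were left unnamed, except where stated. The probe set with the highest mean stood for a gene. The floor was each array's median. A bound ("at least") is the brighter value over the floor of the dimmer array.

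Members and lists were chosen with earlier results of these data known. Intensities are given for members beyond 2-fold, for up to 4 members of each role group with the largest difference and for a fixed set of defining members. Genes of other lists are named beyond 2-fold, up to 4 a list, and any other gene was named with its values in view. Some genes of the lists are not analysed here. Promoter windows came from RefSeq for 47 of 57 members. Alternatives were median centring, quantile normalization, loess (span 0.3), other choices of probe set, a floor at the 25th or 75th percentile, no floor, values raised to the floor, and thresholds of 1.5-fold and 3-fold. The steps were tested on simulated data. Python 3.11.15, numpy 2.4.6, pandas 2.3.3, statsmodels 0.14.6 and matplotlib 3.10.9 were used.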

Additional observations from a re-analysis of the deposited data

How the results depend on the processing

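With the mean of all probe sets of a gene, 2 members were 2-fold or more higher and 1 lower, and with the mean of those above the floor 2 higher and 2 lower, against 1 and 5 with the brightest probe set. A 1.5-fold threshold gave 2 higher and 12 lower, and a 3-fold threshold 1 higher and 1 lower. Under the 3 scalings, the 3 other floors, values raised to the floor, probe sets with no cross-hybridization suffix and probe sets with several symbols, 1 member was higher and from 4 to 6 were lower. The median over members stayed within 0.1 of −0.14 under the 10 alternatives run on it. Median centring moved the median of all genes to −0.01. For single members, ASS1 ranged from 2.15 to 2.26 and SLC43A1 from −1.83 to −1.70. SLC7A1 was under 2-fold in 5 of 10 alternatives, SLC7A2 and SLC38A1 in 2 of 10 each and SLC36A4 in 1 of 8, and 0 members beyond 2-fold changed sign. The median of the carriers above the floor ranged from −0.66 with a floor at the 75th percentile to −0.20 with no floor, which adds dim genes. With probe sets of no cross-hybridization suffix first, 17 carriers were above the floor, with a median of −0.42. SLC1A4 and SLC7A8 were not among them. No paired analysis was possible because each line has 1 array. Signals near the floor limit what can be seen of dim carriers.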
